A study of Drosophila melanogaster with 4 samples.

Results

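The Imp genes of Drosophila melanogaster were described in wing imaginal discs of wild-type larvae and of larvae carrying the warts allele wtsP2. The 5 members, ImpE1, ImpE2, ImpE3, ImpL1 and ImpL2, were found by their FlyBase identifiers among the 15222 gene features counted in each library. They had been picked with their wtsP2 and wild-type values already known, so the differences between the genotypes are given below as descriptions, without a test. Both groups are labelled as strain yw and held 2 libraries each of total RNA, from wing discs dissected by hand out of wandering larvae at the third instar. No wts allele was named for the wild-type group. The wtsP2 group carried wtsP2, a mutant form of wts. Warts, its product, is a kinase of the Hippo pathway and holds back Yorkie, a coactivator of growth genes. The labels say neither whether wtsP2 was homozygous, nor how many larvae were pooled, nor whether replicate libraries stem from separate cultures.

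Imp genes take their name from a search for transcripts on membrane-bound polysomes that the moulting hormone ecdysone induces in cultured imaginal discs. The letter E or L marks an early or a late response to the hormone. Ecdysone acts through a heterodimer of the nuclear receptors EcR and Usp, which switches on a small set of early regulators, and these in turn control late genes. At the end of larval life this response drives disc eversion, in which the folded epithelium turns inside out and elongates into an appendage. Because their messages are translated on membrane-bound ribosomes, the Imp genes were expected to encode secreted or membrane proteins. ImpE1 encodes a membrane protein with repeats like those of the low-density lipoprotein receptor, and ImpE2 a protein secreted at the apical face of disc cells. ImpL2 encodes a secreted immunoglobulin-domain protein that binds insulin-like peptides and dampens insulin signalling.

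Library totals ran from 696952 to 3846682 counts, and the smallest belonged to the second wild-type library. A count of 0 allowed a level of up to 1.42 and 4.30 CPM (counts scaled to the library total) in the wild-type libraries and up to 0.852 and 0.780 CPM in the wtsP2 libraries, each from 3 counts and for counting error only. Zeros were common in the second wild-type library: of 5660 tested genes with at least 20 counts in each of the other 3 libraries, 24.6% had none there, against 2.33% in the first wild-type library, 0.292% in the first wtsP2 library and 0.318% in the second. The wts gene had 46 and 0 counts in the wild-type libraries versus 48 and 24 in wtsP2, which does not check the genotype labels. Summed CPM of the 7 wing disc markers found, among them the pouch gene nub and the dorsal selector ap, lay between 1849 and 2116 in all 4 libraries. The sum hides members that differed: wg was at 54.4 and 67.4 CPM in the wild-type libraries versus 209 and 189 in wtsP2. Likewise rn was at 62.5 and 91.8 CPM against 276 and 243, whereas vg was lower, at 228 and 217 CPM against 124 and 90.5. In the fit given next, 4 of the 7 had a positive log2 fold change. In edgeR's quasi-likelihood fit over 7278 genes, 0 genes passed an adjusted p of 0.05 in either direction (0% of those tested), while 721 were higher and 193 lower at an unadjusted p under 0.05. DESeq2 called 1.3% of its 7366 genes higher and 1.17% lower.

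ImpE2 was by far the most abundant Imp gene in every library and the member with the clearest difference between the genotypes. It is a gene of 1 exon and 1703 bases on chromosome 3L, positions 3510974 to 3512677, minus strand (build BDGP5, as for all positions here unless another is named). The wild-type libraries held 4657 and 2850 ImpE2 counts, and the wtsP2 libraries 1560 and 1779. As CPM these were 2205 and 4089 in the wild-type libraries versus 443 and 462 in wtsP2. The groups did not overlap, and the lower wild-type library stood 4.77-fold above the higher wtsP2 library. Within wild type the libraries differed 1.85-fold and within wtsP2 1.04-fold. Wild type averaged 3147 ± 1333 CPM and wtsP2 453 ± 13.7 (SD, n = 2 each), a 6.95-fold lower mean in wtsP2. In the edgeR fit the log2 fold change was -2.67 ± 0.41 (SE), a 6.37-fold lower level, around a median of 0.24 for all tested genes.

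ImpE2 did not pass in edgeR. It was the 1 member called by DESeq2 and by limma-voom, in each case as lower, where limma-voom called 0.371% of 7278 genes lower and 1.69% higher. Nothing is read from these calls, since ImpE2 was picked on this contrast. Both wtsP2 libraries lay below both wild-type libraries for 15.1% of all tested genes. Only 216 tested genes (2.97%) had a log2 fold change below that of ImpE2. In both wild-type libraries 32 tested genes, ImpE2 among them, were at or above 2205 CPM, the lower wild-type level of ImpE2. That choice was made on the group in which ImpE2 is high. The median log2 fold change of the 32 genes was -0.30. Of these, 3 had a lower log2 fold change than ImpE2, and all 3 encode larval serum proteins of the fat body: Lsp1beta, Lsp1gamma and Lsp2.

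**Figure D1:**
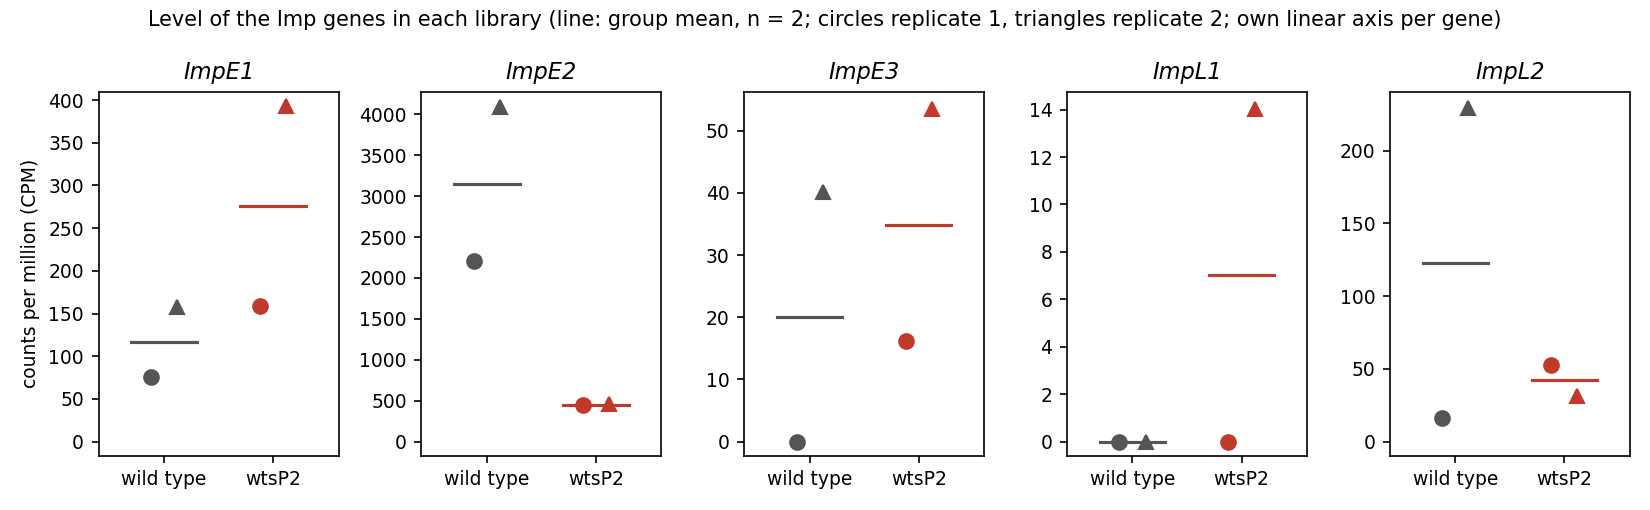
Levels in CPM of the 5 Imp genes in each library, on a linear axis of its own for each gene; circles are replicate 1, triangles replicate 2 and lines the mean of 2 libraries. ImpE2 separates the genotypes with 2205 and 4089 CPM against 443 and 462, while the ImpE3 and ImpL2 points of the groups overlap and ImpL1 has counts in 1 library.

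The authors' deposited table, which rests on another counting of the same libraries, gave a similar picture for ImpE2. It lists base means, that is counts divided by size factors and averaged over a group, of 6493 in wild type and 922 in wtsP2, which is 7.04-fold lower in wtsP2. The whole counts recovered from those means were 4696 and 3005 in the wild-type libraries versus 1769 and 1559 in wtsP2, near those of the per-library files. Fitted with edgeR, the recovered counts gave a log2 fold change of -2.75. With the counts deposited for each library, leaving out each library in turn gave values between -2.98 and -2.23.

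Markers of several tissues or cell types other than the wing disc epithelium were also lower in the wtsP2 libraries. The 8 fat body markers summed to 19632 and 20129 CPM in the wild-type libraries versus 1268 and 1559 in wtsP2, a 14.1-fold lower mean, with all 8 detected in every library. FASN1, a fatty acid synthase gene, did not follow the others, at 247 and 433 CPM against 380 and 275. The highest was Lsp1gamma, a storage protein gene. The 11 haemocyte (blood cell) markers summed to 800 and 885 CPM against 170 and 239, a 4.11-fold lower mean, with 9 detected in at least 1 library and NimC3 and lz at 0 in all 4. They did not move alike: Hml, the highest, was at 84.7 and 215 CPM against 82.4 and 140, and Pxn at 76.7 and 67.4 CPM against 36.4 and 71.8. The crystal cell gene PPO1 was at 225 and 108 CPM against 6.53 and 5.72. Of 17 salivary gland markers 7 were detected, summing to 491 and 461 CPM against 5.11 and 1.30, and 10 genes of the Eig71E cluster had no counts anywhere. Eye disc markers summed to 106 and 264 CPM in the wild-type libraries versus 61.3 and 37.7 in wtsP2. All 4 were detected, gl with only 2 counts, in the second wtsP2 library alone. Tracheal, myoblast and neuron or glia markers differed less, with wtsP2 means at 1.43, 0.629 and 1.27 times the wild-type mean. The myoblast sum was 169 and 443 CPM against 200 and 185, so the groups overlapped. Its members went both ways: twi was at 0 and 0 CPM against 22.7 and 20.5, and Mef2 at 91.4 and 265 against 75.0 and 58.8. Of the 5 tested myoblast markers, 3 had a positive log2 fold change. All 4 tracheal and all 6 myoblast markers were detected. Tracheal markers also went both ways, with 2 of the 4 at a positive log2 fold change. The highest, pio, was at 382 and 647 CPM against 886 and 736. Of 5 neuron and glia markers only nSyb was at 0 throughout. However, repo, Syt1 and brp had counts (13, 13 and 1) in the second wtsP2 library alone, so elav made up most of that sum.

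ImpE2 did not keep a fixed ratio to the fat body markers. Its counts equalled 11.2% and 20.3% of their sum in the wild-type libraries and 34.9% and 29.7% in the wtsP2 libraries. Set against the wing disc markers, ImpE2 stood at 119% and 193% of their sum in wild type and at 20.9% and 23.4% in wtsP2. Over the haemocyte sum, ImpE2 came to 275% and 462% (wild-type libraries) against 260% and 193% (wtsP2 libraries). Over the eye disc sum it came to 2088% and 1549% against 722% and 1227%. Over the salivary gland sum it came to 449% and 888% against 8667% and 35580%. The part of fat body, haemocyte, salivary gland or eye disc RNA in the ImpE2 difference was not tested. In whole discs, fewer cells of a type and less RNA per cell cannot be told apart.

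**Figure D2:**
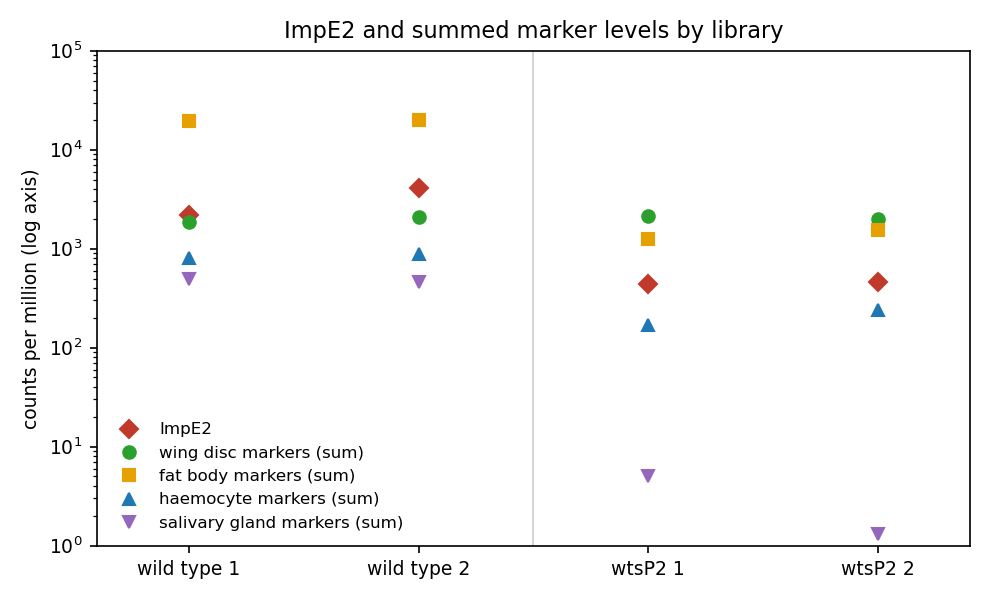
Levels in CPM, on a log axis, of ImpE2 (diamonds) and of the summed markers of wing disc, fat body, haemocyte and salivary gland in each of the 4 libraries. ImpE2 is at 2205 and 4089 CPM in wild type and at 443 and 462 in wtsP2, the fat body sum is at 19632 and 20129 and at 1268 and 1559, and the wing disc sum lies between 1849 and 2116.

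The tested genes whose profile over the 4 libraries lay closest to that of ImpE2 were Hexo2, CG7924 and CG32066. Likeness was the Euclidean distance between log2 CPM values, each gene centred on its own mean, and came to 0.18, 0.18 and 0.19 for the 3 genes. Hexo2, which encodes a beta-hexosaminidase, had 205 and 118 counts in the wild-type libraries versus 74 and 80 in wtsP2. With 4 libraries many genes can share such a shape.

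ImpE1, the other early gene with appreciable counts, leaned the opposite way, by an amount close to the spread between libraries. The gene (chromosome 3L, 8365509 to 8384281, plus strand, 8 exons, 6207 bases) had 161 and 110 counts in the wild-type libraries versus 560 and 1514 in wtsP2. These were 76.2 and 158 CPM in the wild-type libraries versus 159 and 394 CPM in wtsP2. The lower wtsP2 library stood only 1.01-fold above the higher wild-type library, so the groups barely separated, as they did in that direction for 32.3% of all tested genes. Means were 117 ± 57.7 CPM in wild type and 276 ± 166 in wtsP2 (SD, n = 2), and the log2 fold change was 1.39 ± 0.64 (SE). Without the second wtsP2 library it was 0.54.

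More of the ImpE1 gene was covered in the wtsP2 libraries, which are also deeper. Of its 8 exons, 4 and 2 had more than 10 reads in the wild-type libraries and 6 and 8 in the wtsP2 libraries. Long genes tended upwards in this comparison: the length class that holds ImpE1, the longest of 10, had a median log2 fold change of 0.72. EcR, tai, br, Eip74EF, ftz-f1, Eip63E, zip and InR, named below, are longer than ImpE1 and so fall in the same class. The authors' deposited table gave a smaller ratio for ImpE1, with base means of 515 in wild type and 751 in wtsP2 and a fold of 1.46. Its recovered counts, 356 and 245 in the wild-type libraries versus 1823 and 906 in wtsP2, correspond to 207 and 386 CPM against 560 and 298 CPM, so that the groups overlapped. The closest profiles to ImpE1 were those of rut, an adenylyl cyclase gene, of Ssu72, for an RNA polymerase phosphatase, and of the myosin V gene didum, at distances of 0.26, 0.32 and 0.36.

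**Figure D3:**
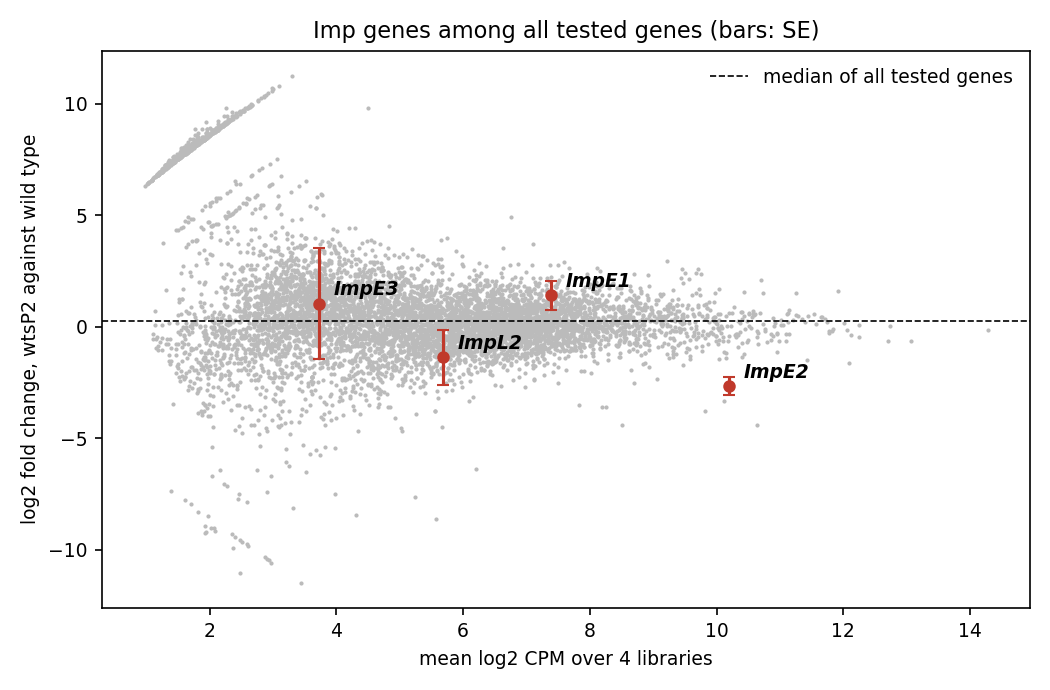
Log2 fold change of wtsP2 against wild type over the mean log2 CPM of the 4 libraries, for all 7278 tested genes (grey) and for the 4 tested Imp genes (red, bars are the SE). ImpE2 lies at -2.67, below most genes of like level, and the dashed line marks the median of all tested genes at 0.24.

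ImpE3 was scarce and uncertain. The feature (chromosome 3R, 3853932 to 3856167, minus strand, 1 exon, 2235 bases) had 0 and 28 counts in the wild-type libraries versus 57 and 206 in wtsP2, or 0 and 40.2 CPM against 16.2 and 53.6 CPM. The groups overlapped, and the first wild-type library stood apart with none, where the level of the first wtsP2 library would have given 34.2 counts. The log2 fold change was 1.02 ± 2.49 (SE), and -0.15 without the second wtsP2 library. Without the second wild-type library no wild-type count was left. Pooled over the wtsP2 libraries, ImpE3 was at 35.7 CPM, at least 25.1-fold above a floor of 3 counts in the first wild-type library. That bound holds against this library alone: the second wild-type library, at 40.2 CPM, lay above the pooled wtsP2 level. Without the first wild-type library the log2 fold change was 0.01.

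The ImpE3 feature lies inside CG2747, a gene on the same strand that had 328 and 170 counts in the wild-type libraries versus 744 and 1130 in wtsP2. In the BDGP6 annotation, a later build used here only for gene structure, the exons of ImpE3 come to 1094 bases and share 0 bases with those of CG2747. The 2235 bases in the files thus belong to a longer model of ImpE3. In the authors' deposited table ImpE3 is listed at 0 in both groups, although the per-library files hold reads for it in 3 libraries. How reads in the overlap were assigned is not given in the sources used here, and it was not tested whether the ImpE3 reads come from ImpE3 or from CG2747 transcripts. The closest profiles, snoRNA:Psi18S-1275, DNAlig4 and Fen1, were at distances of 0.63 to 0.72, farther than for the other members.

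ImpL1, a late gene, was close to the limit of detection. The gene (chromosome 3L, 13375857 to 13377099, plus strand, 4 exons, 1242 bases) had 0 and 0 counts in the wild-type libraries versus 0 and 54 in wtsP2. The second wtsP2 library alone held reads, at 14.0 CPM, and 3 of the 4 exons had more than 10 of them. At that level 29.7 and 9.78 counts would have been found in the wild-type libraries and 49.4 in the first wtsP2 library. Pooled over the wtsP2 libraries the level was 7.33 CPM, at least 6.86-fold higher than in wild type from a floor of 3 counts over the group, but 1 library alone gives that value. ImpL1 did not enter the edgeR fit because of its low counts. The authors' deposited table lists it at 0 in wild type and at a base mean of 12.2 in wtsP2, whose recovered counts were 45 in one library and 0 in the other.

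ImpL2, the late gene for the insulin-binding protein, differed more within wild type than between the genotypes. The gene (chromosome 3L, 4224699 to 4236147, minus strand, 5 exons, 1937 bases) had 35 and 160 counts in the wild-type libraries versus 186 and 122 in wtsP2. As CPM these were 16.6 and 230 in the wild-type libraries versus 52.8 and 31.7 in wtsP2. The second wild-type library was the highest and the first the lowest of the 4, a 13.9-fold range within wild type, and the wtsP2 libraries lay between them. Means were 123 ± 151 CPM in wild type and 42.3 ± 14.9 in wtsP2 (SD, n = 2). The log2 fold change of -1.37 ± 1.23 (SE) turned to 1.39 without the second wild-type library and to 0.79 with limma-voom.

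Reads covered 1 and 3 of the 5 ImpL2 exons beyond 10 reads in the wild-type libraries versus 2 and 2 in wtsP2. The authors' deposited table gave base means of 248 and 94.2 and a fold of 0.381, and the recovered wild-type counts of 60 and 162, or 34.8 and 255 CPM, lay closer together than those in the files. The recovered wtsP2 levels, 41.5 and 66.9 on the same scale, lay between them, as in the files. The closest profiles were those of ArgRS-m, Taf6 and CG13175, at distances of 0.19 to 0.42. ArgRS-m encodes a mitochondrial arginyl-tRNA synthetase and Taf6 a subunit of the general transcription factor TFIID.

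**Figure D4:**
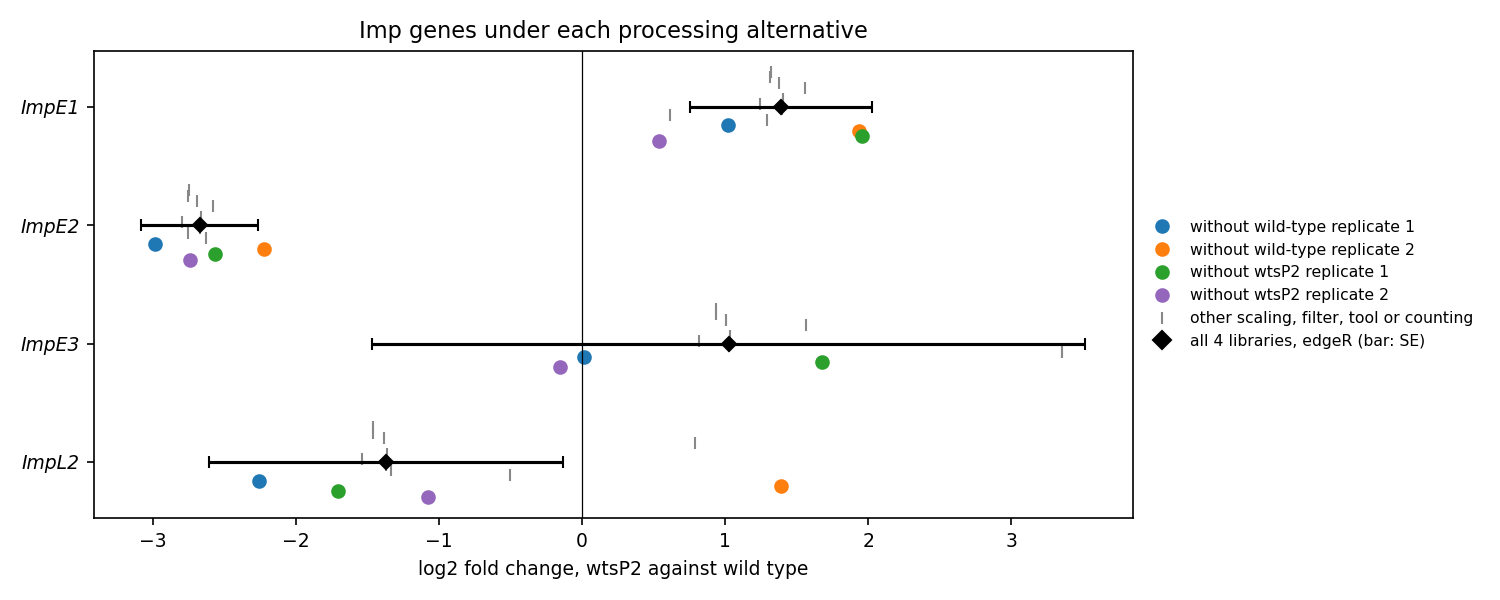
Log2 fold change of wtsP2 against wild type for the 4 tested Imp genes with all libraries (black diamonds, bars are the SE), with each library left out (coloured circles) and under the other alternatives (grey ticks). ImpE2 stays between -2.98 and -2.23, ImpE1 stays above 0, and ImpE3 and ImpL2 have values on both sides of 0; ImpE3 without the second wild-type library is left out because no wild-type count remains.

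Per length, the order of the members was led by ImpE2 in all 4 libraries. In counts per kilobase of gene, scaled to library size as CPM, wild type had 1848 ± 783 for ImpE2, 63.5 ± 77.8 for ImpL2, 18.9 ± 9.30 for ImpE1, 8.99 ± 12.7 for ImpE3 and 0 for ImpL1 (SD, n = 2). In wtsP2 the same level was 266 ± 8.06 for ImpE2, 44.5 ± 26.7 for ImpE1, 21.8 ± 7.71 for ImpL2, 15.6 ± 11.8 for ImpE3 and 5.65 ± 7.99 for ImpL1. ImpE2 was the only member clear of its neighbour in that order, and its lowest library (260) exceeded the highest of any other member (119). All other neighbours differed by less than their spreads between libraries. ImpE2 ranked 206th and 112th from the top of all features per length in wild type and 353rd and 337th in wtsP2.

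The share of the Imp reads that came from ImpE2 was smaller in both wtsP2 libraries than in both wild-type libraries. All Imp genes together took 0.230% and 0.452% of all counts for wild type and 0.0671% and 0.0955% in wtsP2 (95% Wilson intervals 0.223 to 0.236, 0.436 to 0.468, 0.0645 to 0.0699 and 0.0925 to 0.0987). ImpE2 supplied 96.0% and 90.5% of these in wild type and 66.0% and 48.4% in wtsP2 (intervals 95.4 to 96.5, 89.5 to 91.5, 64.1 to 67.9 and 46.8 to 50.0). These intervals cover counting error only, and libraries of the same genotype lay outside each other's.

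The Imp genes are scattered rather than clustered, with 4 on chromosome 3L and ImpE3 on 3R. The closest feature to ImpE2 is CG42324 on its left, 2441 bases away, which had 13 and 157 counts in the wild-type libraries and 0 in both wtsP2 libraries. The closest on its right, 3008 bases away, is Eip63E, another ecdysone-induced gene, which encodes a cyclin-dependent kinase. Eip63E had 63 and 0 counts in the wild-type libraries versus 574 and 460 in wtsP2. Its log2 fold change of 3.19 ± 1.65 (SE) was opposite in sign to that of ImpE2, and was 2.29 without the second wild-type library, where it had none. With the counts recovered from the authors' table it was 0.28.

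The 6 genes for the receptor and for handling of the hormone summed to 770 and 1098 CPM in the wild-type libraries versus 1069 and 806 in wtsP2. Of the 4 that were tested 0 passed in either direction, and their median log2 fold change was 0.01, against 0.24 for all tested genes. The receptor gene EcR had 672 and 304 counts in the wild-type libraries versus 1948 and 1253 in wtsP2, with a log2 fold change of 0.32 ± 0.40 (SE), and -0.02 without the first wtsP2 library. Its partner usp was at -0.54 ± 0.74 and the coactivator gene tai at -0.30 ± 0.36. The ecdysone importer gene Oatp74D (59, 46, 512 and 342 counts) stood higher than the other 3, at 1.45 ± 0.73, and between 1.01 and 2.11 with a library left out.

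Early and early-late regulators, the transcription factors that the receptor switches on, went both ways. Of 10 listed genes 8 were found and 7 tested, of which 0 passed in edgeR in either direction, and the median log2 fold change was 0.27. The broad gene br, the most abundant, had 2197 and 1190 counts in the wild-type libraries versus 5735 and 5444 in wtsP2, with a log2 fold change of 0.27 ± 0.36 (SE). The ETS factor gene Eip74EF had 35 and 0 counts in the wild-type libraries versus 701 and 801 in wtsP2, at 4.50 ± 1.41. Both its wtsP2 libraries stood above both wild-type libraries, as for 32.3% of all tested genes. Eip74EF was the 1 gene of the list that DESeq2 and limma-voom called higher, where they called 1.3% and 1.69% of all genes higher. Without the second wild-type library its log2 fold change was 3.67, and the recovered counts gave 1.72. The nuclear receptor genes Eip78C, Hr39 and ftz-f1 were at -2.10 ± 0.99, 0.72 ± 0.46 and 2.47 ± 1.86. ftz-f1 (62, 0, 308 and 299 counts) gave 1.55 once the second wild-type library was left out and 0.56 with the recovered counts. Leaving out that library put Eip78C at -1.15.

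Of 8 other ecdysone-induced genes, 4 had no counts in any library: the pupal cuticle genes Edg78E, Edg84A and Edg91 and the calcium-binding protein gene Eip63F-1. The other 4 were tested, 0 passed in either direction, and their median log2 fold change was 1.31. Ldh, the lactate dehydrogenase gene also known as ImpL3 from the same search, had 19 and 31 counts in the wild-type libraries versus 323 and 148 in wtsP2. That is a log2 fold change of 1.44 ± 1.26 (SE), and 0.72 and 2.89 without the first or the second wild-type library. Eip71CD, for a methionine sulfoxide reductase, was at 1.18 ± 0.91 with 246 and 14 counts in the wild-type libraries versus 557 and 564, and at 3.11 and 0.44 without the first or the second wild-type library. Eip55E, for cystathionine gamma-lyase, was at -0.70 ± 1.86, turned to 0.74 without the second wild-type library and was at -2.18 without the first wtsP2 library.

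Genes of disc eversion were all 11 tested, with 0 passing in edgeR in either direction and a median log2 fold change of -0.07. The myosin II heavy chain gene zip had 556 and 309 counts in the wild-type libraries versus 3414 and 7551 in wtsP2. The edgeR fit put zip at 2.19 ± 0.52 (SE) on the log2 scale. DESeq2 called zip higher, as the 1 gene of the list, and called 1.3% of its 7366 genes higher. For zip both wtsP2 libraries stood above both wild-type libraries, which held for 32.3% of all tested genes. The gene hep, for a kinase that activates JNK, was at 1.43 ± 0.80, and at 0.82 and 2.51 without the first or the second wild-type library. Timp, for an inhibitor of matrix metalloproteases, had 0 and 1 counts in the wild-type libraries versus 46 and 83 in wtsP2.

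Insulin pathway genes, among them the receptor and the ligands with which ImpL2 interacts, had 12 tested members of 19, with 0 passing in either direction and a median log2 fold change of -0.06. Ilp1, Ilp2, Ilp3, Ilp4, Ilp5 and Ilp7 had no counts in any library. Ilp6, the ligand made mainly in the fat body, had 110 and 84 counts in the wild-type libraries versus 0 and 27 in wtsP2, with a log2 fold change of -4.42 ± 2.22 (SE). The fat body markers given above were lower in the same libraries, and their part in the Ilp6 value was not tested. The relaxin-like peptide gene Ilp8, which discs make when their growth is disturbed, had 0 and 0 counts in the wild-type libraries. The wtsP2 libraries held 41 and 11, or 11.6 and 2.86 CPM. Pooled over wtsP2 the level was 7.06 CPM, at least 6.61-fold above a floor of 3 counts over the wild-type group. That floor covers counting error only, and the first wtsP2 library gave most of the pooled level. The receptor gene InR (357, 439, 1426 and 1547 counts) was at 0.17 ± 0.62, and at -0.45 and 1.31 without the first or the second wild-type library. Pdk1, Lnk and Thor, for a kinase, an adaptor and a translation repressor of the pathway, were at 1.77 ± 0.99, 2.01 ± 1.86 and -1.31 ± 1.26. Without the second wild-type library they were at 0.98, 1.08 and -0.18, and without the first Pdk1 was at 4.14 and Thor at -1.92. Lnk had no counts in the second wild-type library, so no fold is given for it without the first.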

How the data were processed

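Total RNA of 4 wing disc samples was made into libraries with a SOLiD total RNA kit (source: the labels' protocols). The submitters' processing notes name HTSeq, DESeq, BDGP5 and dm3, with no version. Aligner and strand setting: not given in the sources used here. Raw read counts per gene feature were deposited for each library. The same files hold the authors' RPKM values and the number of exons with more than 10 reads, per the file headers. A table of the series holds the authors' DESeq base means, a signal of counts divided by size factors and averaged over a group, and their fold (ratio) of wtsP2 over wild type. All nonzero base means split into whole counts of 2 libraries within a relative tolerance of 1e-09. Which library is which was not assigned. In wild type 5 means and in wtsP2 58 split in more than 1 way. Genes with such a mean were left out of the recovered counts and of their totals.

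The members and lists were chosen with earlier results of these data known. Symbols came from the reference by identifier (14347 features) or transcript (422); of 117 list symbols 114 were found, without Hr4, Kr-h1 and Bx. Counts were fitted with edgeR 4.0.16 in R 4.3.3 (filterByExpr, TMM, robust quasi-likelihood F test, Benjamini-Hochberg over 7278 genes, threshold 0.05); each SE is the fitted log2 value divided by the root of its F statistic. P-values measure the spread between these libraries, which may be technical. In the lists, the 4 tested genes with the smallest p were named, besides EcR, usp, br, Ldh, InR and Ilp8, and for each tested member its overlapping gene and the 3 closest profiles. In the eversion list 1 gene so chosen is not reported here. The level comparison that singled out 3 Lsp genes and the neighbours of ImpE2 (CG42324 and Eip63E) were chosen after values were seen. So were the single markers wg, rn, vg, FASN1, Pxn, PPO1, gl, twi, repo, Syt1 and brp. On counts simulated with the fitted spread, 36.4% of 66 genes changed 8-fold and 1.69% of 59 changed 2-fold were called among 6726 genes. Alternatives were other scalings and filters, DESeq2 1.42.0, limma-voom (limma 3.58.1), the replicate number as a block, recovered counts, protein-coding genes alone and each library left out.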

Additional observations from a re-analysis of the deposited data

How the results depend on the processing

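ImpE2 and ImpE1 kept their direction under all 13 alternatives, ImpE2 between -2.98 and -2.23 and ImpE1 between 0.54 and 1.96 on the log2 scale. ImpE3 ran from -0.15 to 3.36, and ImpL2 from -2.26 (without the first wild-type library) to 1.39 (without the second). Genes called higher and lower over all tested genes, 0 and 0 in edgeR, were 21 and 16 without a filter on low counts, 96 and 86 in DESeq2 and 123 and 27 in limma-voom. With a library left out they ran from 3 to 2514 higher and from 14 to 681 lower; without the first wild-type library, which gave the most calls, the median of all genes was 1.33. Other scalings, the stricter filter, recovered counts and protein-coding genes alone called 0. With the replicate number as a block, 69 genes were higher and 38 lower; deviations of same-numbered libraries correlated at 0.0080, so the numbers were not taken to pair the samples. The early regulator list had 1 call in DESeq2, in limma-voom and with the block, and the eversion list 1 in DESeq2 and with the block. With a library left out, calls ran from 0 to 1 for receptor and hormone handling, 0 to 3 for early regulators, 0 to 2 for the other ecdysone-induced genes, 0 to 5 for eversion and 0 to 6 for the insulin pathway. The highest of these list counts came from leaving out a wild-type library, where many of all tested genes were called too. Without the first wild-type library, 2514 higher and 681 lower of 7979 tested genes were called. Nothing is read from the list counts with a library left out, since 1 library then remained in a group. By recovered counts, levels per kilobase, scaled to library size, were 47.8 for ImpE1 in wild type, 310 for ImpE2 in wtsP2 and 0 for ImpE3. The causes were not tested. ImpE3, ImpL1 and ImpL2 rest on few counts, and the second wild-type library is the shallowest.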
